A study of Homo sapiens with 9 samples.

Results

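The mitochondrial ribosomal protein genes are described here in MM1S, a cell line established from a human multiple myeloma. A gene was taken as a member when its symbol was MRPL or MRPS followed by a number and, where present, a letter A to C. This gave 77 of the 58387 genes in the table, 48 with a large-subunit symbol (MRPL) and 29 with a small-subunit symbol (MRPS). RNA-seq libraries came from MM1S cells carrying shRNA against PHF19 together with an shRNA-resistant PHF19 (KD_Rescued, n = 2), from cells with the shRNA alone (PHF19_KD, n = 3) and from cells with an empty vector (shEV, n = 3). All were lentivirus-infected and grown in ordinary medium, so the empty vector controls carry a lentiviral insert too. PHF19 associates with PRC2, the Polycomb complex that methylates histone H3. For 1 more library the title names the knockdown and the shRNA label names the resistant PHF19, and it entered no comparison. The labels do not say that libraries of a group came from separate cultures, nor whether the knockdown line was 1 clone, so p-values measure the spread between libraries, which may be technical.

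Mitochondria hold their own ribosome, which translates the few proteins that the mitochondrial genome encodes, all of them subunits of the respiratory chain and the ATP synthase. Its ribosomal RNAs come from the mitochondrial genome, while every one of its proteins is encoded in the nucleus, made in the cytosol and imported. Part of these proteins have bacterial homologues, and the others are specific to mitochondria. Subunit names follow the symbols, with 3 exceptions known from structures: the products of MRPS18A and MRPS30 sit in the large subunit, and that of MRPS36 belongs to the alpha-ketoglutarate dehydrogenase complex.

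The libraries held 23644100 to 23751400 estimated counts in KD_Rescued, 10609800 to 12024900 in PHF19_KD and 16974700 to 22739700 in shEV. Levels are given as normalised CPM, the share of a library's counts after TMM scaling, without division by gene length, so a gene is compared between libraries and not with other genes. PHF19 itself had 220 and 218 CPM in KD_Rescued, against 26.0, 27.5 and 27.3 CPM in PHF19_KD, and 123, 124 and 103 CPM in shEV. All 9 plasma cell and myeloma markers examined exceeded 1 CPM in all 9 libraries, among them SDC1 and IRF4. Their levels were not equal between groups: they summed to 9800 to 9840 CPM in KD_Rescued, 7020 to 7200 in PHF19_KD and 10600 to 11700 in shEV. IGJ was the largest part of each sum, with 5610 to 5730, 2740 to 2860 and 6220 to 7280 CPM in these groups. The 9 markers did not move together: in PHF19_KD against shEV 3 were called higher and 4 lower (edgeR adjusted p below 0.05), against 34.9% and 34.2% of all genes tested. SDC1 was higher in PHF19_KD than in shEV (1000 to 1060 against 609 to 727 CPM). IRF4 was lower (388 to 404 against 667 to 682 CPM). CD3D, NKG7 and KRT19, markers of T cells, NK cells and epithelium, were at 0 in every library. Over the whole lists of other cell types, the summed level was 1.91 to 1.92 CPM in KD_Rescued, 0.52 to 0.827 in PHF19_KD and 1.21 to 1.65 in shEV for 4 T and NK markers, 0.375 to 0.417, 2.23 to 2.79 and 0.362 to 0.767 CPM in the same groups for 3 fibroblast markers, and at most 0.472 CPM for the 3 monocyte and the 3 epithelial markers. Both KD_Rescued libraries carry another lane number than all the others, and an effect of lane cannot be told apart from one of rescue. shEV replicate 3 stood apart within its group: its chi-square per degree of freedom against the other shEV libraries was 6.45 and 7.93, while the other replicate pairs of all groups gave 1.37 to 2.23. It was the lowest shEV library for 42 of the 77 members and the highest for 24. In bulk RNA, fewer cells of a kind and less RNA per cell cannot be told apart.

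All 77 members passed the filter on low counts, with a lowest estimated count of 98.8, and 16600 genes were tested. Of the members, 24 had whole counts in all 8 libraries of the comparisons. The other 53 had a fractional estimate in at least 1 library, and 25 of them in all 8. An estimate can be fractional where reads are divided between transcripts of different genes, so these values are less certain; whether that was so here was not tested. MRPL11, MRPL37, MRPL12, MRPL47, MRPL53, MRPL43, MRPL45, MRPS6, MRPS12, MRPS25, MRPS18A, MRPS18C and MRPS36 are among the 25.

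**Figure D1:**
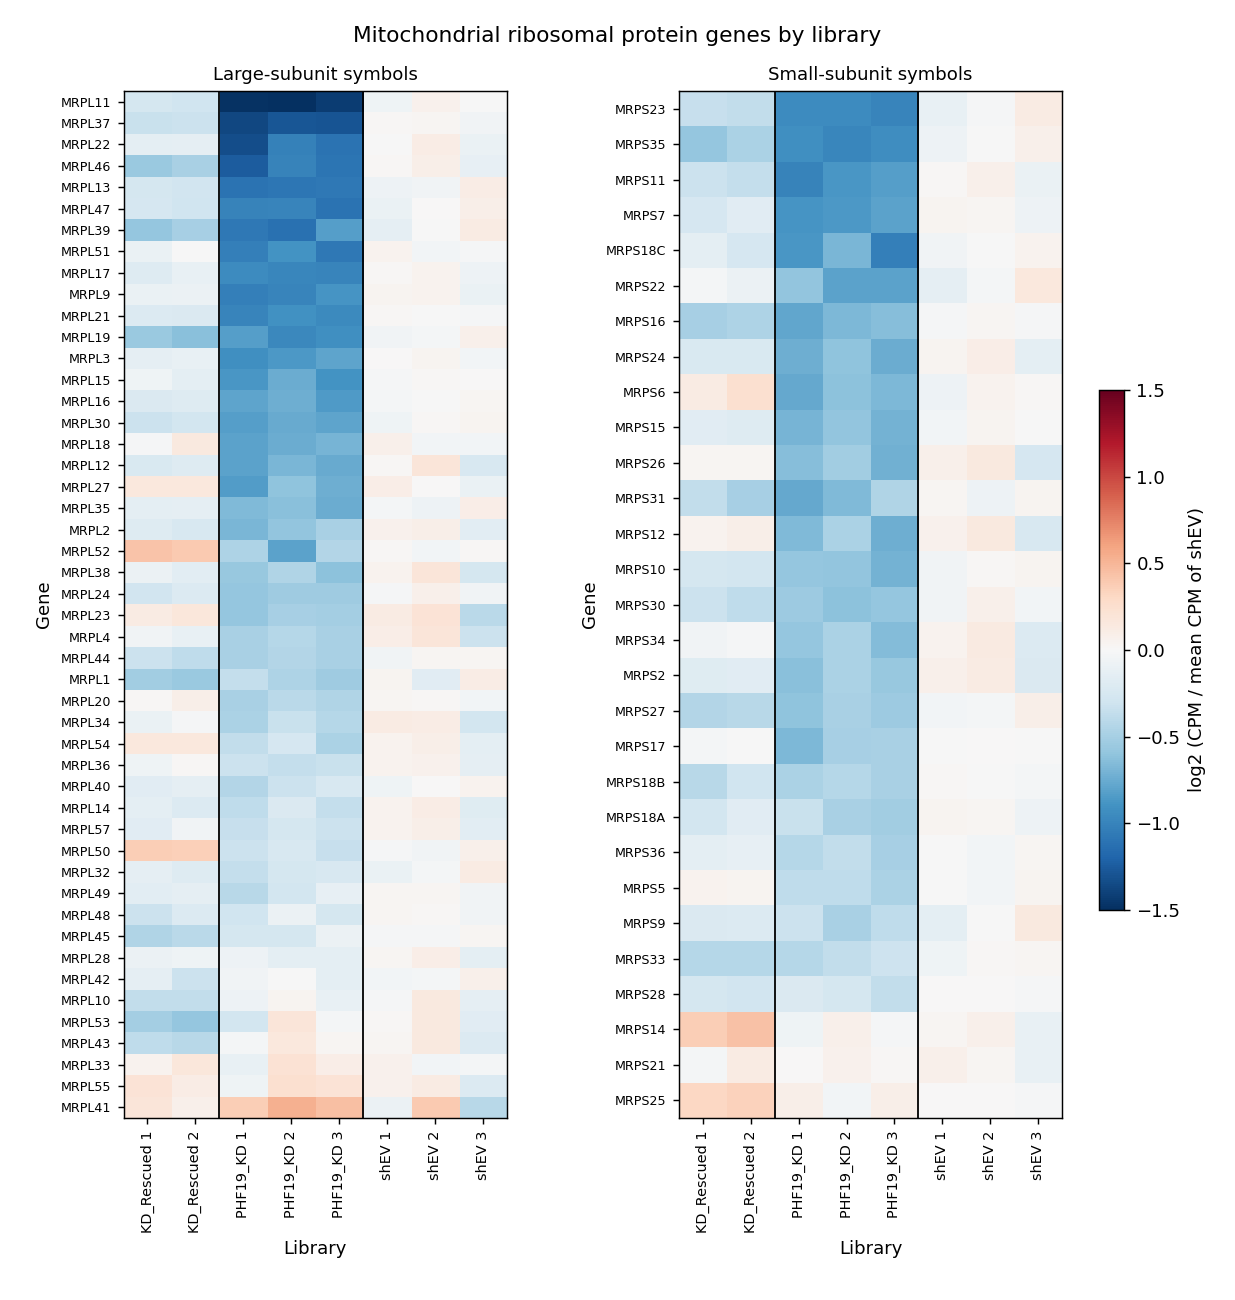
Level of each of the 77 mitochondrial ribosomal protein genes (rows) in each library (columns), as log2 of its CPM over the mean CPM of shEV. Blue is below and red above the shEV mean, rows are ordered by the log2 fold change between PHF19_KD and shEV, and vertical lines part the groups. The PHF19_KD columns are blue for most genes, except near the foot of each panel, where MRPL41, MRPL55, MRPS14 and MRPS25 stand. MRPL52, MRPL50 and MRPS14 are redder in KD_Rescued than in shEV.

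The first comparison set the knockdown against the empty vector. Mitochondrial ribosomal protein transcripts were lower in PHF19_KD for most members of both subunits, with a median log2 fold change of -0.55. With the edgeR quasi-likelihood test and an adjusted p below 0.05, 66 of the 77 members fell, 0 rose and 11 did not pass. At an unadjusted p below 0.05, 1 member was higher, and DESeq2 called 1 higher and 66 lower. Of all genes tested, 34.2% were called lower and 34.9% higher, together 69.1%, so calls were common in this comparison, and the members differ from that background in how they divide between the directions. The PHF19_KD and shEV libraries did not overlap for 66 of 77 members, against 72% of all genes tested. By size, 44 members had a log2 fold change below -0.5 and 6 below -1, against 25.1% and 10.9% of all genes tested. All 6 below -1 were large-subunit members. Upper-quartile scaling left 58 members lower and made 7 higher (MRPL33, MRPL41, MRPL43, MRPL55, MRPS14, MRPS21 and MRPS25). That scaling put the median over all genes at 0.19 on the log2 scale, against 0.03 with TMM. Measured from the median of all genes, the median of the members was at -0.59 on the log2 scale under both scalings. A change of scaling shifts all genes nearly alike, so this distance could hardly differ and says nothing about which scaling is right.

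Among large-subunit symbols, 40 of 48 members fell. Their log2 fold changes had a median of -0.54, an SD between members of 0.41 and a range of -1.5 to 0.45. Among small-subunit symbols, 26 of 29 fell, with a median of -0.58, an SD of 0.26 and a range of -0.96 to 0.05. Both the largest falls and the highest values therefore lay in the large subunit, while the medians differed by far less than the spread between members. With genes placed by position in the ribosome, the medians were -0.54 for the large and -0.62 for the small subunit. Members with bacterial homologues had medians of -0.72 in the large subunit (26 of 29 lower) and -0.62 in the small subunit (14 of 16 lower). All other members except MRPS36 were taken as specific to mitochondria. These had medians of -0.31 in the large subunit (14 of 19 lower) and -0.58 in the small subunit (11 of 12 lower). The class thus depends on the list of homologues used, and MRPL55, at 0.13, was placed in it. Under upper-quartile scaling 9 of the 19 mitochondria-specific large-subunit members were lower and 3 higher, with a median of -0.15. These classes overlapped over most of their range, and the difference between them was not tested.

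**Figure D2:**
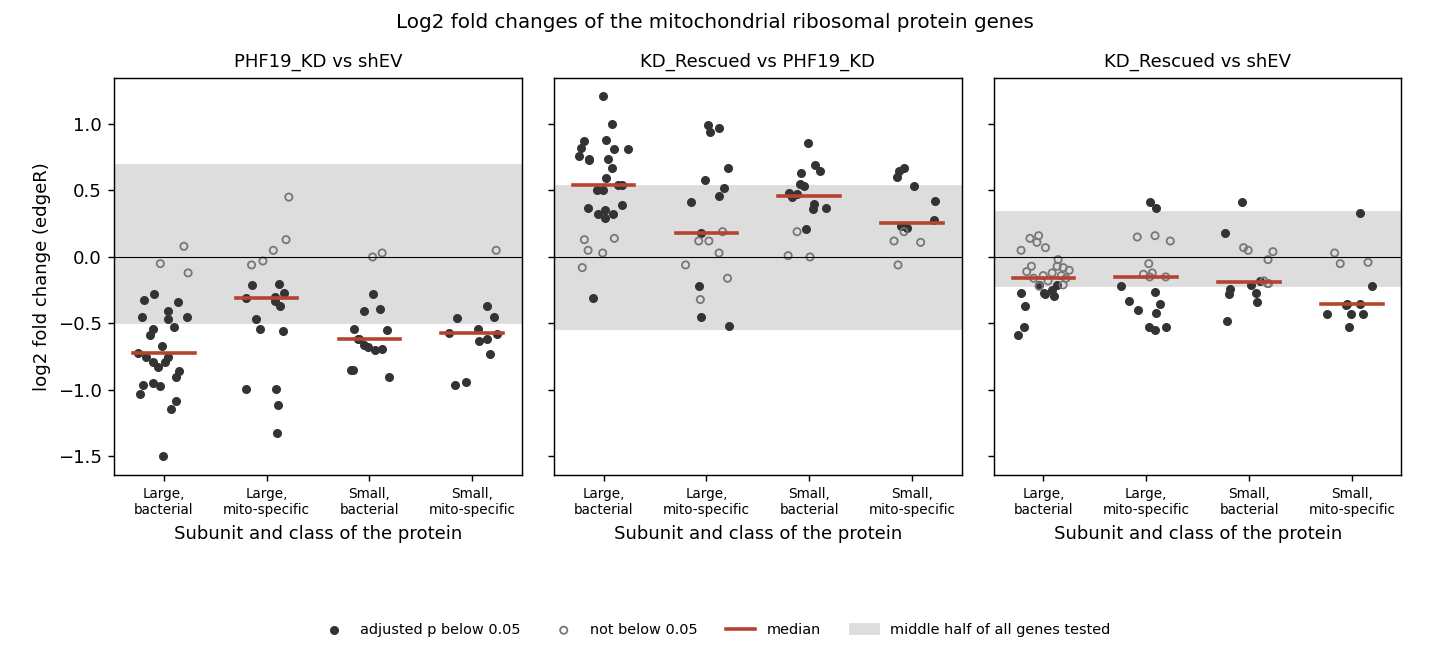
Log2 fold changes of the mitochondrial ribosomal protein genes in the 3 comparisons, by subunit symbol and by class of protein, with MRPS36 left out. Each point is a gene, filled where the adjusted p (edgeR) was below 0.05; the horizontal bar is the median of the class and the grey band the range between the quartiles of all genes tested. In PHF19_KD against shEV the medians run from -0.72 to -0.31, with the widest scatter in the mitochondria-specific large-subunit genes. Under upper-quartile scaling 7 members were called higher in this comparison.

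MRPL11, whose protein forms the base of the stalk to which translation factors bind, had the largest fall of the 77. It had 22.3, 20.8 and 23.2 CPM in PHF19_KD, against 59.4, 65.3 and 62.2 CPM in shEV. Every knockdown library was far below every control library, at 35.5% of the shEV mean. The log2 fold change was -1.5 ± 0.06 (SE, edgeR adjusted p = 1.28e-09). MRPL12, which sits at the tip of the stalk and recruits the factors, had 69.5, 75.3 and 71.6 CPM in PHF19_KD, against 123, 138 and 103 CPM in shEV, a log2 fold change of -0.75 ± 0.09 (SE, edgeR adjusted p = 4.48e-05). MRPL10, which anchors MRPL12 to the ribosome, had 55.0, 59.6 and 53.8 CPM in PHF19_KD, against 57.3, 64.3 and 52.8 CPM in shEV. Here the groups overlapped, and the log2 fold change of -0.05 ± 0.07 (SE) did not pass (edgeR adjusted p = 0.543). The 3 stalk proteins thus had unequal changes in transcript level. The ratio of MRPL11 to MRPL10 CPM, which does not depend on scaling between libraries, was 0.406, 0.349 and 0.432 in PHF19_KD and 1.04, 1.02 and 1.18 in shEV.

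Beyond MRPL11, the largest falls of the large subunit were those of MRPL37, MRPL22 and MRPL46. MRPL37, specific to mitochondria, had 64.9, 68.7 and 68.1 CPM in PHF19_KD, against 170, 171 and 161 CPM in shEV, a log2 fold change of -1.32 ± 0.05 (SE, edgeR adjusted p = 2.08e-10). MRPL22, which lines the tunnel through which the new protein leaves, had 12.7, 15.8 and 14.8 CPM in PHF19_KD, against 31.6, 34.4 and 29.6 CPM in shEV, with a log2 fold change of -1.14 ± 0.09 (SE, edgeR adjusted p = 2.75e-07). MRPL46, a protein of the central protuberance, had 11.1, 13.1 and 12.3 CPM in PHF19_KD, against 26.7, 27.9 and 24.2 CPM in shEV, with a log2 fold change of -1.11 ± 0.09 (SE, edgeR adjusted p = 2.83e-07). None of these 3 genes showed overlap between the groups. MRPL22 had whole counts in all 8 libraries.

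By place in the large subunit, all 8 listed proteins of the polypeptide exit site had lower transcripts, with a median log2 fold change of -0.76. They ran from MRPL22 to MRPL45, which attaches the ribosome to the inner membrane. MRPL45 had 39.8, 39.6 and 44.8 CPM in PHF19_KD, against 47.2, 47.0 and 48.7 CPM in shEV, and its small fall of -0.20 ± 0.06 (log2, SE, edgeR adjusted p = 0.0116) was not called without PHF19_KD replicate 1 or 2 (-0.17 in both cases), with a filter of 5 CPM in 2 libraries (-0.10) or under upper-quartile scaling (-0.045). MRPL44, a protein with an RNase III fold, had 26.2, 27 and 26.3 CPM in PHF19_KD, against 35.3, 37.5 and 37.5 CPM in shEV. Of 8 listed proteins of the central protuberance, 7 were lower, with a median of -0.55, and the remaining one, MRPL55, did not pass at 0.13 ± 0.10 (SE, edgeR adjusted p = 0.255).

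In the small subunit the falls were more even. MRPS23, specific to mitochondria, had 39.4, 39.3 and 38.1 CPM in PHF19_KD, against 70.2, 74.6 and 82.3 CPM in shEV, a log2 fold change of -0.96 ± 0.07 (SE, edgeR adjusted p = 6.79e-08). MRPS35, likewise specific to mitochondria and with whole counts in all 8 libraries, had 52.3, 50 and 51.9 CPM in PHF19_KD, against 93.9, 98.8 and 104 CPM in shEV, at -0.94 ± 0.06 (SE, edgeR adjusted p = 2.17e-08). Both genes lay at little over 50% of the shEV mean, 51.4% for MRPS23 and 52.0% for MRPS35, with no overlap. MRPS11, a homologue of a bacterial platform protein, had 22, 24.1 and 24.8 CPM in PHF19_KD, against 44.4, 46.4 and 41.1 CPM in shEV, at -0.90 ± 0.07 (SE, edgeR adjusted p = 2.48e-07). MRPS12, a protein of the decoding centre, had 38.5, 43.8 and 36.7 CPM in PHF19_KD, against 63.7, 67.7 and 51.6 CPM in shEV, at -0.62 ± 0.10 (SE, edgeR adjusted p = 0.000286).

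The MRPS18 family has 3 paralogues, of which each ribosome holds the A form in the large subunit and the B and C forms in the small subunit. All 3 fell. MRPS18C had 22.4, 25.6 and 20.2 CPM in PHF19_KD, against 39.7, 40.8 and 42.8 CPM in shEV, with a log2 fold change of -0.85 ± 0.08 (SE, edgeR adjusted p = 1.63e-06). MRPS18B had 44.3, 45.7 and 44.1 CPM in PHF19_KD, against 62.6, 61.6 and 60.6 CPM in shEV, at -0.46 ± 0.05 (SE, edgeR adjusted p = 8.59e-06). MRPS18A had 24.4, 22 and 21.4 CPM in PHF19_KD, against 31.7, 31.4 and 29.1 CPM in shEV, at -0.45 ± 0.07 (SE, edgeR adjusted p = 0.000179). No knockdown library overlapped a control library for any of the 3. The ratio of MRPS18C to MRPS18B CPM was 0.506, 0.562 and 0.459 in PHF19_KD and 0.635, 0.663 and 0.705 in shEV. MRPS30 and MRPS36, the other genes whose products lie elsewhere than their symbols say, fell by 0.58 and 0.43 on the log2 scale.

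The 11 members that did not pass were MRPL10, MRPL28, MRPL33, MRPL41, MRPL42, MRPL43, MRPL53, MRPL55, MRPS14, MRPS21 and MRPS25. Their fitted log2 fold changes ran from -0.12 for MRPL28 to 0.45 for MRPL41. MRPS14, a homologue of a bacterial protein of the small-subunit head, had 45.2, 49.8 and 46.7 CPM in PHF19_KD, against 48.2, 49.7 and 43.5 CPM in shEV. Its groups lay on top of each other, and its standard error of 0.07 on the log2 scale was like that of members that fell. MRPL41 was the least settled, with 40.2, 45 and 42.4 CPM in PHF19_KD against 29.2, 40.8 and 23.4 CPM in shEV, where 1 control library reached the knockdown range (0.45 ± 0.18, SE, edgeR adjusted p = 0.0629). Mutations in a number of the members cause inherited combined oxidative phosphorylation deficiency. Of 12 such genes 10 fell (83.3%), with a median of -0.63, MRPS14 and MRPS25 being the ones that did not pass. That share was near the 85.7% of all 77 members called lower.

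**Figure D3:**
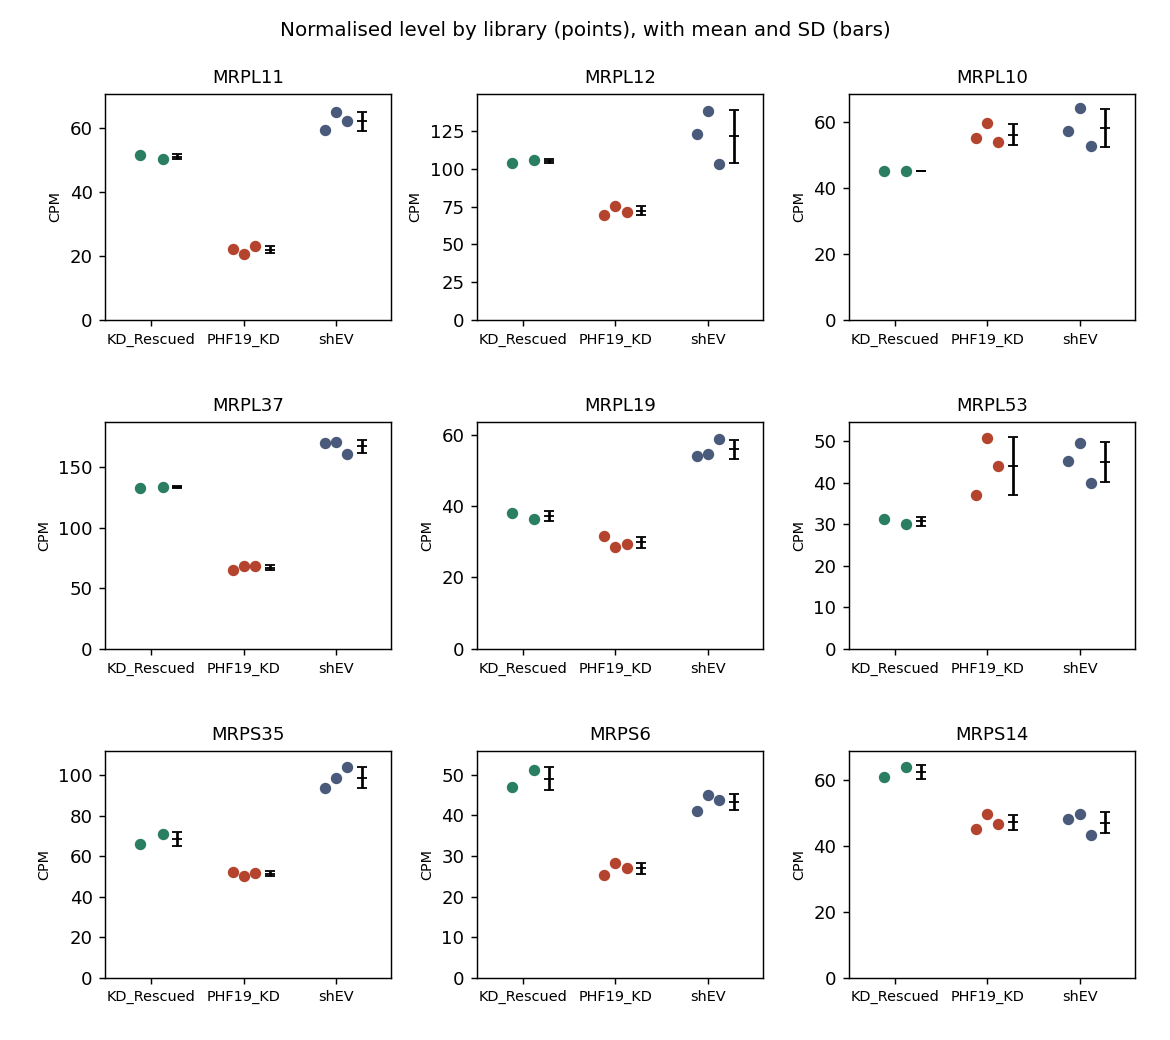
CPM of 9 mitochondrial ribosomal protein genes in each library of KD_Rescued, PHF19_KD and shEV, with points for libraries, bars for the mean and SD (n = 2, 3 and 3) and axes that start at 0. MRPL11, MRPL37 and MRPS35 are low in PHF19_KD and between that group and shEV in KD_Rescued. MRPL10 and MRPL53 are lowest in KD_Rescued, and MRPS14 is highest there.

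Promoter sequence was examined for members that moved together. The 250 bases before the annotated start came from RefSeq (GRCh38.p14, while the submitters' processing notes name hg19), and 68 of the 77 members and 10042 of the genes tested had such an entry. Shown are the promoters of the 3 members with the largest falls, of MRPL47, which fell by 1.03 on the log2 scale and was picked for its motifs after its values were seen, and of MRPS14, whose PHF19_KD and shEV libraries overlapped. Each is written from 5′ to 3′ on the strand of the gene and ends at the last base before the start. Capitals mark matches to the motifs searched. They lie at chr11:66438849-66439098 (minus strand), chr1:54199917-54200166 (plus), chr5:154940823-154941072 (plus), chr3:179604639-179604888 (minus) and chr1:175023426-175023675 (minus), in the order of the lines.
MRPL11: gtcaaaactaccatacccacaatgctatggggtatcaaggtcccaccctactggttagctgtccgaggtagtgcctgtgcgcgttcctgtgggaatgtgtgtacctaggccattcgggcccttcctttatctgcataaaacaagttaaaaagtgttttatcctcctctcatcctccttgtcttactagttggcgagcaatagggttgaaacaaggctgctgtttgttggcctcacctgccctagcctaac
MRPL37: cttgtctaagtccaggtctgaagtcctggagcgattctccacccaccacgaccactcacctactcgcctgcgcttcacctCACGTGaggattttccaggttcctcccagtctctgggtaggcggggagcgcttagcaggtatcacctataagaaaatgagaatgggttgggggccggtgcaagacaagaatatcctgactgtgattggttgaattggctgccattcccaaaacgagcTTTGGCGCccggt
MRPL22: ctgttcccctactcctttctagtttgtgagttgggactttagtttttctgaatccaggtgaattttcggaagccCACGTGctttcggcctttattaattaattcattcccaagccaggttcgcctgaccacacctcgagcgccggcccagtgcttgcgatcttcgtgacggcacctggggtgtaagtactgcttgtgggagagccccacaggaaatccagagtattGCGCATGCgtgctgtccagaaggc
MRPL47: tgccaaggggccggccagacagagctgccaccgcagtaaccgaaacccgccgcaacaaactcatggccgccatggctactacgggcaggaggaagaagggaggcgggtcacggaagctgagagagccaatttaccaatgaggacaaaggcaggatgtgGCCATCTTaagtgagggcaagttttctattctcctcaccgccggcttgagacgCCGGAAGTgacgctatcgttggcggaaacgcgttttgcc
MRPS14: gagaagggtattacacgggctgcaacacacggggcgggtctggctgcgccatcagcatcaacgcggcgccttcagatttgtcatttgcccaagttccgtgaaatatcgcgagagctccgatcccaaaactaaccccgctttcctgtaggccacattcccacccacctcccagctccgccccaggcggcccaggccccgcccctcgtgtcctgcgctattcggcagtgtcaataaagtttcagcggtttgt

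The motifs, searched on both strands, were GCGCATGC (core of the NRF1 site), CCGGAAGT (the ETS family, to which GABPA belongs), AAGATGGC (YY1), CACGTG (the E-box of MYC and MAX) and TTTCCCGC, TTTCGCGC, TTTGCCGC or TTTGGCGC (E2F). NRF1, GABPA and YY1 are known as regulators of nuclear genes for mitochondrial proteins. The MRPL37 promoter held an E-box beginning 170 bases before the start and an E2F match 13 bases before it. The MRPL22 promoter held an E-box at 176 bases and an NRF1 core at 24 bases before the start. The MRPL47 promoter held a YY1 match on the opposite strand at 92 bases and an ETS match at 39 bases before the start. Neither the MRPL11 nor the MRPS14 window held any of these letters. Of the member promoters, 8.82% held the NRF1 core, against 5.84% of all genes tested with a promoter, 14.7% against 8.17% held the ETS letters, 7.35% against 2.37% the YY1 letters, 11.8% against 11.5% the E-box and 7.35% against 5.58% an E2F form. In 1 member promoter, matches to different motifs overlapped. The median log2 fold change between PHF19_KD and shEV was -0.72 in the 10 members with the ETS letters and -0.54 in the members without them, -0.71 and -0.54 for the NRF1 core (6 members), and -0.46 and -0.55 for the E-box (8 members). It was -0.85 with and -0.54 without an E2F form (5 members), and -0.56 with and -0.54 without the YY1 letters (5 members). These counts are descriptions of letters, and no difference was tested.

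The second comparison asked how the members stood once resistant PHF19 was added. They were mostly higher in KD_Rescued than in PHF19_KD: 54 of 77 rose, 4 fell and 19 did not pass (edgeR quasi-likelihood test, adjusted p below 0.05), against 33.9% of all genes tested called higher, 29.5% called lower and 63.4% called in either direction. The groups did not overlap for 66 of 77 members, against 77.2% of all genes tested. A log2 fold change below -0.5 was found in 1 member (MRPL53) and one below -1 in 0 members, against 26.4% and 14.2% of all genes tested. Upper-quartile scaling gave 43 higher and 7 lower. By subunit, 32 of 48 large-subunit members rose and 4 fell (median log2 fold change 0.44), and 22 of 29 small-subunit members rose and 0 fell (median 0.40). In the small subunit, no member was lower at an unadjusted p below 0.05 (0 of 29) or by DESeq2 (0 of 29), while upper-quartile scaling called 1 lower. Since PHF19_KD enters both this comparison and the one before it, a chance deviation of its libraries would show in both with opposite signs.

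MRPL11 rose the most, with 51.8 and 50.6 CPM in KD_Rescued against 22.3, 20.8 and 23.2 CPM in PHF19_KD, a log2 fold change of 1.21 ± 0.07 (SE, edgeR adjusted p = 2.19e-08). Its ratio to MRPL10 was 1.15 and 1.12 in KD_Rescued. MRPL22 followed, with 28.8 and 29.1 CPM in KD_Rescued against 12.7, 15.8 and 14.8 CPM in PHF19_KD (1.00 ± 0.10, SE, edgeR adjusted p = 2.17e-06), and then MRPL37, at 133 and 134 CPM in KD_Rescued (0.99 ± 0.05, SE, edgeR adjusted p = 6.91e-09). MRPL52, a protein of the central protuberance, had 27.1 and 26.5 CPM in KD_Rescued against 14.6, 11.6 and 14.9 CPM in PHF19_KD (0.97 ± 0.10, SE, edgeR adjusted p = 2.99e-06). In the small subunit the largest rise was that of MRPS6, a homologue of a bacterial platform protein, with 47.1 and 51.1 CPM in KD_Rescued against 25.4, 28.3 and 27.1 CPM in PHF19_KD (0.86 ± 0.07, SE, edgeR adjusted p = 6.02e-07). MRPS12, MRPS22 and MRPS26 rose by 0.69, 0.67 and 0.65 on the log2 scale.

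The 4 members that fell were all in the large subunit. MRPL53 had 31.4 and 30 CPM in KD_Rescued against 37.0, 50.9 and 44.0 CPM in PHF19_KD (-0.52 ± 0.13, SE, edgeR adjusted p = 0.00432). MRPL43 had 35.9 and 35.1 CPM in KD_Rescued against 45.8, 52.2 and 47.6 CPM in PHF19_KD (-0.45 ± 0.10, SE, edgeR adjusted p = 0.00143). Both are specific to mitochondria and had fractional estimates in all 8 libraries. MRPL10 had 45.2 and 45.1 CPM in KD_Rescued against 55.0, 59.6 and 53.8 CPM in PHF19_KD (-0.31 ± 0.08, SE, edgeR adjusted p = 0.00522), the opposite direction to MRPL11 and MRPL12. MRPL45 changed by -0.22 ± 0.07 (SE, edgeR adjusted p = 0.0131) and was not called with no filter on low counts (-0.18) or without KD_Rescued replicate 1 (-0.19) or PHF19_KD replicate 3 (-0.17).

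For several members the groups lay close together. MRPL1, a protein of the mobile side stalk, had 20.9 and 20.4 CPM in KD_Rescued against 23.3, 21.7 and 20.6 CPM in PHF19_KD, which overlap (-0.08 ± 0.09, SE, edgeR adjusted p = 0.482). MRPL44, MRPS18B and MRPS27, a pentatricopeptide repeat protein, were slightly above PHF19_KD in every rescued library, at 0.12, 0.11 and 0.12 on the log2 scale, but did not pass, and all 3 changed sign under upper-quartile scaling. MRPS18A passed at 0.22 ± 0.08 (SE, edgeR adjusted p = 0.0307), and the call was lost by DESeq2 (0.18), with the filter of 5 CPM in 2 libraries (0.15), under upper-quartile scaling (0.068), with the replicate number as a block (0.19) and without KD_Rescued replicate 2 (0.17) or PHF19_KD replicate 2 (0.20) or 3 (0.18).

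The third comparison placed the rescued cells beside the empty vector. KD_Rescued was lower than shEV for 34 of 77 members and higher for 5, with 38 not passing (edgeR quasi-likelihood test, adjusted p below 0.05), against 19.1% of all genes tested called lower, 20.7% called higher and 39.8% called in either direction. The groups did not overlap for 55 of 77 members, against 61.7% of all genes tested. A log2 fold change below -0.5 was found in 6 members and one below -1 in 0 members, against 9.45% and 3.22% of all genes tested. The medians were small, -0.15 for the large subunit (19 lower, 2 higher) and -0.20 for the small subunit (15 lower, 3 higher), beside a median of 0.02 over all genes. The count of lower members varied with single libraries: it was 49 without shEV replicate 3, 24 without KD_Rescued replicate 1 and 23 without KD_Rescued replicate 2. This comparison shares its libraries with both of the others.

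MRPL19 was farthest below the control, with 38.1 and 36.3 CPM in KD_Rescued against 54.1, 54.7 and 58.9 CPM in shEV (-0.59 ± 0.07, SE, edgeR adjusted p = 3.51e-05). MRPS35 had 66.0 and 71.1 CPM in KD_Rescued against 93.9, 98.8 and 104 CPM in shEV (-0.53 ± 0.06, SE, edgeR adjusted p = 3.76e-05). MRPL53, MRPL1, MRPL39 and MRPL46 were lower by 0.53 to 0.55 on the log2 scale, and MRPS16, MRPS31 and MRPS27 by 0.43 to 0.48. MRPS31 was not called without KD_Rescued replicate 2 (-0.38). None of these 9 members had overlapping groups. MRPL11 and MRPL37 were at 82.2% and 79.6% of the shEV mean in KD_Rescued and were called lower (edgeR adjusted p = 0.00369 and 0.00026).

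The 5 members above the control were MRPL52, MRPL50, MRPS14, MRPS25 and MRPS6. MRPL52 had 27.1 and 26.5 CPM in KD_Rescued against 20.5, 19.6 and 20.5 CPM in shEV (0.41 ± 0.09, SE, edgeR adjusted p = 0.00338). MRPL50, specific to mitochondria, had 45.9 and 45.4 CPM in KD_Rescued against 34.9, 34.1 and 37.3 CPM in shEV (0.37 ± 0.06, SE, edgeR adjusted p = 0.000697). Both of these genes had whole counts in all 8 libraries, and both were below shEV in PHF19_KD, where MRPL50 lost its call under upper-quartile scaling. MRPS14 had 61.1 and 64.0 CPM in KD_Rescued against 48.2, 49.7 and 43.5 CPM in shEV (0.41 ± 0.07, SE, edgeR adjusted p = 0.000609). MRPS25 had 68.7 and 70.3 CPM in KD_Rescued against 55.8, 55.8 and 54.6 CPM in shEV (0.33 ± 0.06, SE, edgeR adjusted p = 0.000714). For these 2 genes PHF19_KD lay at the shEV level. MRPS6 passed narrowly (0.18 ± 0.07, SE, edgeR adjusted p = 0.0487), and leaving out any 1 library other than shEV replicate 3 ended its call, with values of 0.11 to 0.24.

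Summed over the members of each subunit, levels differed between the groups while the proportion of the subunits differed little. Large-subunit members summed to 2500 and 2514 CPM in KD_Rescued, to 1819, 1939 and 1881 CPM in PHF19_KD and to 2813, 2894 and 2664 CPM in shEV. Small-subunit members summed to 1603 and 1632 CPM in KD_Rescued, to 1226, 1275 and 1229 CPM in PHF19_KD and to 1826, 1888 and 1789 CPM in shEV. For both subunits the rescued libraries lay between the knockdown and the control libraries, with no overlap. The ratio of the large to the small sum was 1.54 to 1.56 in KD_Rescued, 1.48 to 1.53 in PHF19_KD and 1.49 to 1.54 in shEV, so the sums of the subunits stood in nearly the same proportion in each group. Together the members made up 0.417% to 0.418% of all counts in KD_Rescued, 0.308% to 0.323% in PHF19_KD and 0.445% to 0.464% in shEV.

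**Figure D4:**
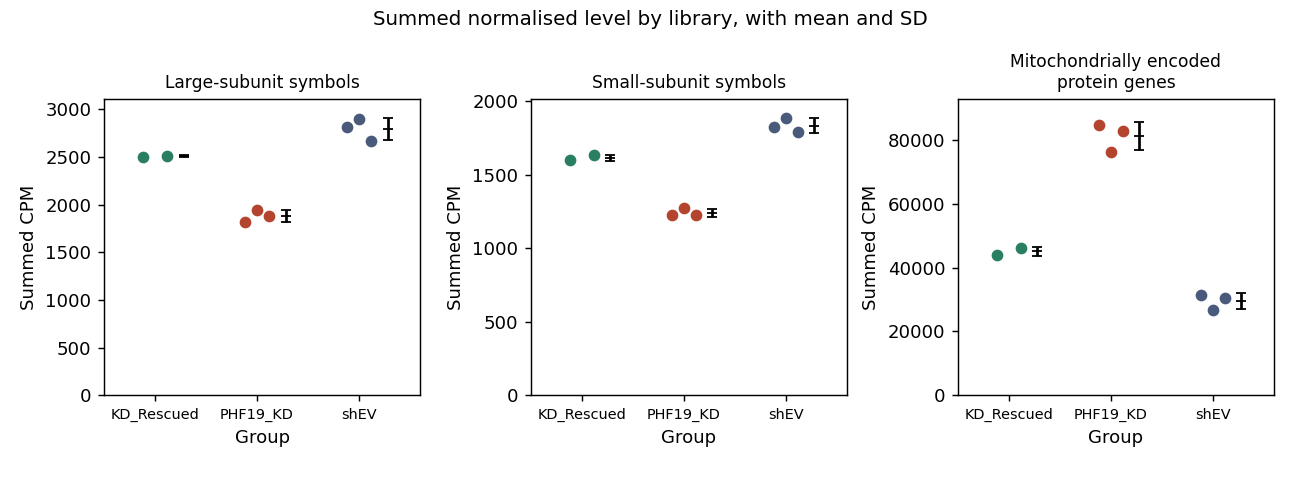
Summed CPM of large-subunit members, of small-subunit members and of the 13 mitochondrially encoded protein genes in each library, with points for libraries, bars for the mean and SD (n = 2, 3 and 3) and axes that start at 0. Both subunit sums are lowest in PHF19_KD, at 1819 to 1939 and 1226 to 1275 CPM, while the mitochondrially encoded sum is highest there, at 76266 to 84649 CPM.

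The remaining proteins of the mitochondrial ribosome, which carry other symbols, were all lower in PHF19_KD than in shEV (6 of 6, median log2 fold change -0.61). Upper-quartile scaling called 4 of the 6 lower in this comparison, with a median of -0.46. PTCD3, a pentatricopeptide repeat protein of the small subunit, had 99.6, 102 and 101 CPM in PHF19_KD, against 150, 155 and 166 CPM in shEV. ICT1, a large-subunit protein with peptidyl-tRNA hydrolase activity, had 14.6, 14.7 and 14.7 CPM in PHF19_KD, against 24.3, 27.6 and 25.8 CPM in shEV. In KD_Rescued against PHF19_KD, 5 of the 6 rose and 0 fell. In KD_Rescued against shEV 1 fell (16.7%), which was CHCHD1 at -0.30 ± 0.06 (SE), and 0 rose. Of all genes tested, 19.1% were called lower and 20.7% higher there, so the share called lower was near that of all genes. Neither count of 0 changed at an unadjusted p below 0.05 or with DESeq2, but upper-quartile scaling called 1 of the 6 lower in KD_Rescued against PHF19_KD.

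Genes that assemble the ribosome or modify its RNA followed a like division. Of 21, 17 fell and 0 rose in PHF19_KD against shEV (median -0.59). The 0 held at an unadjusted p below 0.05 and by DESeq2. Upper-quartile scaling called 13 lower and 0 higher, with a median of -0.44. FTSJ2, an rRNA methyltransferase, changed by -1.02 ± 0.06 (log2, SE). In KD_Rescued against PHF19_KD 15 rose and 1 fell, which was NOA1, a GTPase of small-subunit assembly, at -0.41 ± 0.06 (SE). In KD_Rescued against shEV 4 were higher (19.0%) and 6 lower (28.6%), against 20.7% and 19.1% of all genes tested. The share called higher was thus near that of all genes. Of 16 translation factors and related genes, 11 fell and 2 rose in PHF19_KD against shEV (median -0.39). Under upper-quartile scaling 9 were lower and 3 higher. GFM1, an elongation factor, changed by -0.87 ± 0.05 (SE), SLIRP, an RNA-binding partner of LRPPRC, by -0.95 ± 0.12, and the initiation factor MTIF3 by 0.41 ± 0.08. Of these 16, 10 rose and 2 fell in KD_Rescued against PHF19_KD, and 3 were higher (18.75%) and 5 lower (31.25%) in KD_Rescued against shEV. Of 16 genes of mitochondrial transcription, replication and RNA processing, 14 fell and 1 rose in PHF19_KD against shEV (median -0.55). Under upper-quartile scaling 11 were lower and 1 higher, with a median of -0.39. TFAM, which packages mitochondrial DNA and acts in its transcription, had 72.9 and 72.2 CPM in KD_Rescued, against 55.1, 55.7 and 58.2 CPM in PHF19_KD and 120, 119 and 128 CPM in shEV. Of the 16, 11 were called higher in KD_Rescued than in PHF19_KD and 0 lower. The 0 held at an unadjusted p below 0.05 and by DESeq2, but upper-quartile scaling called 2 lower. In KD_Rescued against shEV 1 was called higher (6.25%) and 6 lower (37.5%), against 20.7% and 19.1% of all genes tested.

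Among 9 regulators of nuclear genes for mitochondrial proteins, 7 fell and 1 rose in PHF19_KD against shEV (median -0.27), although under upper-quartile scaling only 4 fell and 2 rose. NRF1 had 28.9 and 30.1 CPM in KD_Rescued, against 16.1, 16 and 16.6 CPM in PHF19_KD and 26.9, 29.2 and 26.4 CPM in shEV. GABPA had 47.4 and 40.9 CPM in KD_Rescued, against 35.8, 34.0 and 35.7 CPM in PHF19_KD and 63.3, 62.5 and 62.8 CPM in shEV. The knockdown libraries of both genes lay below all others. The regulator that rose was ESRRA, a nuclear receptor, at 0.42 ± 0.06 (log2, SE), and MYC did not pass at 0.06 ± 0.04 (SE, edgeR adjusted p = 0.233). In KD_Rescued against PHF19_KD 5 of the 9 rose and 1 fell, which was MYC at -0.47 ± 0.05 (SE, edgeR adjusted p = 3.96e-06). For these 9, DESeq2 called 3 higher and 1 lower and upper-quartile scaling 2 higher and 2 lower (median 0.08, against 0.23 with TMM). In KD_Rescued against shEV 1 was called higher (11.1%) and 3 lower (33.3%), against 20.7% and 19.1% of all genes tested. MYC was among the 3 lower, at -0.41 ± 0.05 (SE, edgeR adjusted p = 5.51e-05).

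Nuclear-encoded respiratory chain and ATP synthase subunits were lower in PHF19_KD than in shEV for 54 of 75 genes and higher for 2, with a median of -0.44. Upper-quartile scaling called 50 lower and 7 higher. NDUFV2, a subunit of complex I, changed by -1.36 ± 0.07 and ATP5G1, which encodes the ring subunit of the ATP synthase, by -1.25 ± 0.05 (log2, SE). In KD_Rescued against PHF19_KD 54 rose and 5 fell. In KD_Rescued against shEV 8 were higher (10.7%) and 23 lower (30.7%), against 20.7% and 19.1% of all genes tested. Transcripts for the proteins of the cytosolic ribosome went the other way. Of 86 tested, 70 rose and 4 fell in PHF19_KD against shEV (median 0.42). In KD_Rescued against PHF19_KD 2 rose and 77 fell (median -0.65). In KD_Rescued against shEV 0 were higher and 47 lower (54.7%), against 20.7% and 19.1% of all genes tested. There 1 was higher at an unadjusted p below 0.05 and 0 by DESeq2. RPL23, a protein of the large cytosolic subunit, had 2040, 2070 and 2080 CPM in PHF19_KD, against 1120, 1070 and 1140 CPM in shEV. RPL39L, which is a paralogue of a tunnel protein, fell by 1.17 on the log2 scale. The medians of both lists kept their direction under DESeq2 and upper-quartile scaling. Upper-quartile scaling put the negative PHF19_KD against shEV medians nearer 0, at -0.24 for translation factors, -0.28 for the respiratory chain and -0.12 for the regulators. The median of the cytosolic ribosome moved away from 0, to 0.57. For KD_Rescued against PHF19_KD, upper-quartile scaling gave 0.26 for assembly, against 0.42 with TMM, and 0.13 against 0.29 for translation factors. It gave 0.21 against 0.36 for transcription and RNA processing, and 0.18 against 0.33 for the respiratory chain. For the cytosolic ribosome it gave -0.8 against -0.65.

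The transcripts that the mitochondrial ribosome reads were higher in the knockdown. All 13 mitochondrially encoded protein genes rose in PHF19_KD against shEV (median 1.48), with 0 lower also at an unadjusted p below 0.05 and by DESeq2. Their summed level was 44096 and 46125 CPM in KD_Rescued, against 84649, 76266 and 82772 CPM in PHF19_KD and 31490, 26861 and 30603 CPM in shEV. KD_Rescued thus lay between the other groups, and all 13 genes had fitted levels below PHF19_KD, 12 of them called lower, and all 13 were called higher than in shEV. MT-CO1, a subunit of cytochrome oxidase, had 28400, 25900 and 27800 CPM in PHF19_KD, against 9810, 8850 and 9730 CPM in shEV. Because these genes take a large share of the counts (4.99% to 5.18% of the total in KD_Rescued, 9.02% to 10.0% in PHF19_KD and 2.84% to 3.32% in shEV, all genes with an MT- symbol included), the fit was repeated without them. That left 66 members lower and 0 higher in PHF19_KD against shEV.

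Other measures moved with the members. MKI67, a marker of proliferating cells, had 602 and 624 CPM in KD_Rescued, against 55.2 to 64.9 CPM in PHF19_KD and 662 to 689 CPM in shEV. PHF19_KD libraries were also the shallowest of the 3 groups. The higher fibroblast marker sum in PHF19_KD came almost wholly from COL1A1, at 2.79, 2.23 and 2.6 CPM. In the same libraries COL1A2 was at 0 and DCN at most at 0.0867 CPM. The part of proliferation, of depth, of the MT- share and of the COL1A1 level in the values of the members was not tested.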

How the data were processed

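RNA from MM1S cells was extracted with an RNeasy kit and sequenced from TruSeq v2 libraries made from 1 µg of total RNA, per the labels' protocols. The deposited table gives estimated counts per gene and library; its own name refers to salmon, while the submitters' processing notes name CASAVA, RSEM and hg19, so which program made them is not known. For annotation, filters and strand, which were not given in the sources used here, nothing is assumed, so overlapping and antisense genes may share reads.

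Estimated counts were rounded. In edgeR 4.0.16 (R 4.3.3, limma 3.58.1), genes passing filterByExpr were scaled by TMM and fitted by group means over 8 libraries with robust quasi-likelihood tests, and p-values were adjusted (Benjamini-Hochberg) over 16600 genes. The SE of a log2 fold change is its size over the square root of F. The procedure was tested on simulated data in which few genes changed. In PHF19_KD against shEV 69.1% of genes were called, a case that the simulation does not cover. DESeq2 1.42.0 and 8 other alternatives were run, and each of the 8 libraries was left out in turn. Counts were called whole within 0.01. Tables were summarised in Python 3.11.15 with pandas 2.3.3 and scipy 1.17.1, and drawn with matplotlib 3.10.9. Same-numbered replicates did not deviate together.

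The members and lists were chosen with earlier results of these data known. Named by rule were, per comparison and subunit, the 4 called members with the largest fall and the 4 with the largest rise, the members of the stalk and of the MRPS18 family, MRPL44, MRPL45, MRPS12, MRPS30 and MRPS36, and from each other list at most 2 rises and 2 falls with the lowest adjusted p. The interval given for a single library covers counting error only.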

Additional observations from a re-analysis of the deposited data

Results flagged for a closer look

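MRPS14 was above every shEV library in the library whose title and shRNA label disagree. It had 54.2 CPM there, with a 95% Poisson interval of 49.8 to 58.9 CPM that covers counting error only, while the highest shEV library had 49.7 CPM. The KD_Rescued libraries, at 61.1 and 64.0 CPM, were higher still, and the PHF19_KD libraries had 45.2 to 49.8 CPM. The lower end of the interval lay barely above the highest shEV library and level with the highest PHF19_KD library. The interval leaves out the error of the shEV values and the choice of MRPS14 from among 77 members. MRPS14 also had fractional estimates in 7 of the 8 libraries compared, which makes its values less certain. The interval therefore cannot show that MRPS14 differed from shEV in this library. No group can be given to this library, so the difference was not tested.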

How the results depend on the processing

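For PHF19_KD against shEV, the number of members called lower was 64 to 67 when 1 library was left out and 21 among the 24 members with whole counts only, while the number called higher was 1 with DESeq2, 3 with a filter of 5 CPM in 2 libraries, 7 under upper-quartile scaling and 0 to 1 with 1 library left out. The large-subunit median was -0.44 with the filter of 5 CPM, -0.63 with no filter on low counts and -0.38 under upper-quartile scaling, and the small-subunit median was -0.43 under upper-quartile scaling. For KD_Rescued against PHF19_KD, whole counts only gave 16 higher and 0 lower (both from fewer members), with medians of 0.63 for the large and 0.32 for the small subunit. The filter of 5 CPM gave 0.36 and 0.33 for these medians, and upper-quartile scaling 0.28 and 0.25, with 7 lower. Leaving out 1 library gave 50 to 59 higher and 4 to 5 lower. For KD_Rescued against shEV, whole counts only gave 2 higher and 9 lower, with a small-subunit median of -0.35, and leaving out 1 library gave 4 to 5 higher and 23 to 49 lower. The cause of these shifts was not tested.

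Reversed signs occurred only for named members with no call in that comparison. In PHF19_KD against shEV, MRPL53 was at 0.068 with the filter of 5 CPM, 0.13 under upper-quartile scaling and -0.14 to 0.08 with 1 library left out; MRPL10 was at 0.044, 0.10 and -0.11 to 0.028 under the same settings. MRPL43 was at -0.041 with no filter and -0.037 to 0.13 with 1 library left out, and MRPS25 at -0.046 with no filter. MRPS14 was at -0.0033 with DESeq2, -0.089 with no filter, -0.03 without MT- genes and -0.051 to 0.043 with 1 library left out. In KD_Rescued against PHF19_KD, upper-quartile scaling put MRPS27 at -0.039, MRPS18B at -0.043 and MRPL44 at -0.035. In KD_Rescued against shEV, MRPS12 was at -0.011 with the replicate block and -0.034 to 0.14 with 1 library left out, and MRPS22 was at -0.12 to 0.026 with 1 library left out. MRPS26 was at -0.019 with DESeq2, -0.026 with no filter, -0.057 with the replicate block, -0.0015 without MT- genes and -0.085 to 0.10 with 1 library left out.

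Replicate numbers do not pair these samples: correlations of same-numbered deviations were -0.0100 to 0.0256. With the replicate block, 66 members were lower and 0 higher in PHF19_KD against shEV, 55 higher and 4 lower in KD_Rescued against PHF19_KD, and 5 higher and 40 lower in KD_Rescued against shEV.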

Other observations

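The library with disagreeing labels held 10164100 estimated counts and 63.3 CPM of PHF19. Its large-subunit members summed to 2049 CPM and its small-subunit members to 1352 CPM, with a ratio of 1.52. Of the 77 members, 63 were below every shEV library and 2 above every shEV library (MRPL33 and MRPS14), while 43 were above and 14 below every PHF19_KD library. MRPL11 had 30.2 CPM, at a ratio to MRPL10 of 0.557, and MRPL37 had 88.8 CPM. The mitochondrially encoded protein genes summed to 49348 CPM and MKI67 had 237 CPM. These are values of 1 library with no replicate.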
